A study of Homo sapiens with 12 samples.

Results

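The genes described here are 9 factors of translation elongation: EEF1A1, EEF1A2, EEF1B2, EEF1D, EEF1G, EEF1E1, EEF2, EEF2K and TPT1. The rule takes them by gene symbol, and each has a row among the 20212 protein-coding genes of the count table. All libraries came from PANC-1, an established human pancreatic cancer line that the labels call pancreatic duct, with no genetic change between the groups. The cells received either the solvent DMSO or 50 nM rapamycin, an inhibitor of the mTORC1 kinase complex, for 60 min. There were 3 cultures per treatment, and ribosome-protected fragments (RF) and total RNA were sequenced from every culture, which makes 12 libraries. The sources do not say whether the cultures were grown on separate days, so the tests measure the spread between these samples.

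Elongation is the step in which the ribosome moves along the coding sequence. eEF1A (EEF1A1 and its paralog EEF1A2) carries each aminoacyl-tRNA to the ribosome, the eEF1B complex (EEF1B2, EEF1D and EEF1G) recharges eEF1A with GTP, and eEF2 moves the ribosome on by a codon. The kinase eEF2K inhibits eEF2 by phosphorylation and is itself restrained by mTORC1 signaling. Many of these mRNAs, like those of the ribosomal proteins, begin with a terminal oligopyrimidine (TOP) sequence, a C followed by a run of pyrimidines, which places their translation under mTORC1. EEF1A1, EEF1A2, EEF1B2, EEF1D, EEF1G, EEF2 and TPT1, which encodes the translationally controlled tumor protein TCTP, are usually counted among the TOP mRNAs. EEF1E1, a scaffold protein of the multi-tRNA synthetase complex, and EEF2K are not.

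The question for these genes was whether rapamycin changed their translation efficiency (TE), the RF level relative to the RNA level. The RefSeq transcript starts are shown because a TOP sequence, where a gene has it, stands there. Each line gives 5 bases before the annotated start and 20 bases from it, on GRCh38.p14 (the counts use GRCh37), with the pyrimidine run that opens the transcript in capitals.
EEF1A1, chr6:73521013-73521037, minus strand: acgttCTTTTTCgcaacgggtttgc
EEF2, chr19:3985444-3985468, minus strand: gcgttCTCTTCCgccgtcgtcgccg
TPT1, chr13:45341164-45341188, minus strand: tcggcCTTTTCCgcccgctcccccc
EEF1B2, chr2:206159890-206159914, plus strand: cgggtCCTTTTTCCTCTCTTCagcg
EEF1G, chr11:62573872-62573896, minus strand: ggcttactttgcggcagcgccgaga
EEF2K, chr16:22206273-22206297, plus strand: cttctgctcaacctagaccagcccc
EEF1E1, chr6:8102529-8102553, minus strand: gtctcgcgtctgccaggagctacgg

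A C at the annotated start followed by at least 4 pyrimidines (C or T, on the gene's own strand) was found in 4 of the 7 members whose starts were examined. EEF1A1, EEF2 and TPT1 each opened with a run of 7 pyrimidines, and the EEF1B2 start shown opened with a run of 16. EEF1B2 has another annotated start, 286 bases upstream, that begins with A. The same pattern stood at 4.07% of all 35116 annotated starts and at 48 of 86 annotated starts of cytosolic ribosomal protein genes (55.8%). Counted by start in the same way, it stood at 4 of 8 starts of the members (50%). The annotated start of EEF1G begins with A, so the pattern was not in that window, which shifts with any small error in the annotated position. EEF1A2 had no entry among these starts, and EEF1D was left out of the search, so its start was not examined.

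The RF libraries held between 278835 and 1574723 reads on exons, and the RNA libraries between 78081241 and 94293744. The 9 genes together took 0.391% to 0.580% of the RF reads and 0.967% to 1.04% of the RNA reads. The duct and epithelial markers KRT8, KRT18 and KRT19 reached 1979 to 3654 CPM (counts scaled to the library size) in total RNA and SOX9 reached 83.0 to 93.9, whereas KRT7 and EPCAM stayed between 5.44 and 8.33 CPM. PTPRC, ALB, INS and PRSS1, which mark blood, liver, beta and acinar cells, did not exceed 0.626 CPM, and the fibroblast gene COL1A1 lay between 3.63 and 5.47 CPM.

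Rapamycin moved TE past the threshold for none of the 8 members that could be tested, and 4 of the 8 had a lower and 4 a higher estimate. In edgeR's quasi-likelihood test over all 13329 genes with enough reads, 0 of the 8 had an adjusted p under 0.05 in TE, in RF alone or in RNA alone. The share of all tested genes past that threshold was 0% in TE, 0% in RF and 0% in RNA. At an unadjusted p under 0.05, again 0 of the 8 passed in each comparison, against 12.6% of all genes in TE, 3.68% in RF and 5.82% in RNA. With DESeq2's Wald test, which called 9.31% of all genes in TE, 0 of the 8 passed after adjustment, and EEF1D, EEF2 and EEF2K, all with higher estimates, passed before it, as did 21.8% of all genes. With limma voom 0 passed either way. The median TE change of the 8 was 0.07 on the log2 scale, beside −0.06 over all genes tested.

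In the following, TE is the log2 ratio of RF CPM to RNA CPM in each culture, and changes are rapamycin minus DMSO on the log2 scale with their standard error (SE). Scaling within each library type removes a shift that most genes share. The changes and their intervals are therefore relative to the other genes and do not measure absolute translation.

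EEF1A1, the main eEF1A gene, had the highest RNA level of all 13329 genes tested, by CPM averaged over cultures. Its RF counts were 1028, 2312 and 6238 in DMSO replicates 1, 2 and 3 and 4376, 2706 and 802 in rapamycin replicates 1, 2 and 3. Scaled to library size, these were 3162, 2905 and 4238 CPM in DMSO and 3628, 3275 and 2668 CPM in rapamycin. The highest and the lowest of the 6 values thus lay in different treatments, but the groups overlapped. RNA was 6869, 7563 and 7428 CPM in DMSO and 7360, 7050 and 7259 CPM in rapamycin, a spread of 1.10-fold between the lowest and highest culture. Log2 TE was −1.12, −1.38 and −0.81 in DMSO and −1.02, −1.11 and −1.44 in rapamycin. The TE change was −0.09 (SE 0.19, edgeR adjusted p = 0.871), which is 0.937-fold with a 95% interval of 0.710 to 1.24. For the mRNA with the deepest RF coverage of the 9, the interval of this fit therefore reaches neither a 1.5-fold fall nor a 1.5-fold rise relative to the other genes.

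EEF1A2 is the paralog of EEF1A1 that most adult tissues do not express and that muscle and neurons do. RF was 234, 98.0 and 215 CPM in DMSO and 198, 208 and 223 CPM in rapamycin. The value of DMSO replicate 2, from 78 reads, stood below the other 5, which lay within 198 to 234 CPM. RNA ranged from 150 to 162 CPM. The estimated TE change was 0.25 (SE 0.33, edgeR adjusted p = 0.800), and without DMSO replicate 2 it was −0.07. The sign of the EEF1A2 estimate therefore rested on that culture.

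In the eEF1B complex, EEF1B2, the exchange factor proper, had RF of 255, 235 and 305 CPM in DMSO and 169, 252 and 196 CPM in rapamycin. Log2 TE was −0.58, −0.81 and −0.41 in DMSO and −1.20, −0.59 and −0.99 in rapamycin, so that 2 of the 3 rapamycin cultures lay below all DMSO cultures and the third among them. TE changed by an estimated −0.32 (SE 0.21, edgeR adjusted p = 0.562), or 0.799-fold with a 95% interval of 0.582 to 1.10.

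EEF1D is the other exchange subunit. RF was 178, 160 and 252 CPM in DMSO and 261, 241 and 269 CPM in rapamycin, and RNA was 395, 399 and 405 CPM and 390, 378 and 410 CPM. Log2 TE was −1.15, −1.32 and −0.68 in DMSO and −0.58, −0.65 and −0.61 in rapamycin. EEF1D was the only one of the 8 members whose TE groups did not overlap, with all rapamycin cultures higher. Groups apart in this direction occurred in 4.85% of all genes tested, and groups apart with rapamycin lower in 5.11%. The two-sided exact permutation p was 0.1, the smallest that 3 cultures against 3 can give. In the fit, the TE change was 0.39 (SE 0.21, edgeR adjusted p = 0.474). The estimates of EEF1B2 and EEF1D had opposite signs, neither passed, and their difference was not tested. RF groups did not overlap in 9.45% of all genes and RNA groups in 14.8%, and neither was the case for any of the 8 members.

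EEF1G, the structural subunit of eEF1B, could not be followed in its own row of the count table. It held 0 RF reads in every library and 76, 59 and 63 RNA reads in DMSO and 51, 49 and 71 in rapamycin. The limit for a library without a read, 3 counts, was 1.91 CPM in the deepest and 10.8 CPM in the shallowest RF library. In the table of FPKM (fragments scaled to transcript length and library size) made from the same total RNA, EEF1G stood at 565 ± 27.9 in DMSO and 567 ± 28.7 in rapamycin (SD, n = 3), between TPT1 and EEF1A1. In the annotation of GRCh37, EEF1G lies on the minus strand at chr11:62327068-62341558, and the gene ENSG00000255508 on the same strand (chr11:62327075-62359003) covers all 1311 of its coding bases. The count table gives that row the name MIR3654. It held 140, 269 and 800 RF reads in DMSO and 612, 416 and 164 in rapamycin, and between 83604 and 108075 RNA reads. Reads in the shared exons cannot be told apart by gene, and how they were assigned was not tested. For the overlapping row, log2 TE was −1.34, −1.78 and −1.11 in DMSO and −1.18, −1.10 and −1.12 in rapamycin, and the TE change was 0.24 (SE 0.20, edgeR adjusted p = 0.653).

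**Figure D1:**
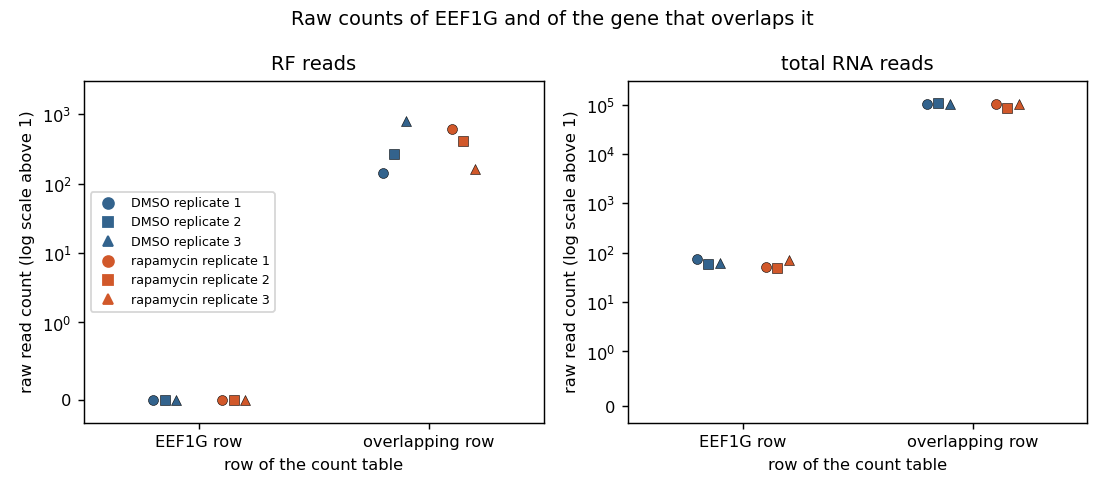
Raw read counts of the EEF1G row and of the row of the gene that covers its coding exons, in RF (left) and total RNA (right), on an axis that is logarithmic above 1. Each point is a library, with color for treatment and shape for replicate. The EEF1G row holds 0 RF reads in all 6 libraries, while the overlapping row holds 140 to 800.

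EEF2, the translocase, had RF of 849, 754 and 916 CPM in DMSO and 1110, 963 and 865 CPM in rapamycin. Its RNA varied by 1.04-fold over the 6 cultures, the least of the members. Log2 TE was −0.78, −0.97 and −0.71 in DMSO and −0.43, −0.58 and −0.79 in rapamycin. Rapamycin replicates 1 and 2 lay above all DMSO cultures and replicate 3 among them. The TE change was 0.22 (SE 0.16, edgeR adjusted p = 0.588), or 1.17-fold with a 95% interval of 0.927 to 1.47. In this fit the interval included no fall of more than 7.35% relative to the other genes, whereas the interval of RF alone reached down to 0.875-fold. The EEF2 estimate itself ran from 0.13 to 0.31 over 15 alternative settings, so this limit moves with the setting.

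EEF2K, the kinase of eEF2, had the largest TE estimate and the fewest reads. RF counts were 4, 6 and 22 in DMSO and 32, 20 and 1 in rapamycin, or 12.3, 7.54 and 14.9 CPM against 26.5, 24.2 and 3.33 CPM. Rapamycin replicates 1 and 2 were above, and replicate 3 below, all DMSO cultures. The single read of rapamycin replicate 3 has an exact Poisson 95% interval of 0.0842 to 18.5 CPM, which covers counting error only. Its TE estimate was 0.86 (SE 0.43, edgeR adjusted p = 0.423), with a 95% interval of 0.965-fold to 3.42-fold. The means of log2 TE per culture, −1.95 ± 0.49 in DMSO and −1.75 ± 1.63 in rapamycin (SD, n = 3), differed by less than that estimate. For RF alone the EEF2K change was 0.70 (SE 0.84), with a wider 95% interval of 0.479-fold to 5.54-fold.

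TPT1 had RF of 135, 118 and 185 CPM in DMSO and 119, 162 and 86.5 CPM in rapamycin. Log2 TE was −1.69, −2.04 and −1.36 in DMSO and −1.98, −1.43 and −2.46 in rapamycin, and the lowest value, in rapamycin replicate 3, came from 26 reads. The TE change was −0.22 (SE 0.27, edgeR adjusted p = 0.782).

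EEF1E1 had between 13 and 109 RF reads per library. RF was 46.1, 47.8 and 74.0 CPM in DMSO and 56.4, 36.3 and 43.2 CPM in rapamycin. The TE change was −0.30 (SE 0.36, edgeR adjusted p = 0.778), and without DMSO replicate 3 it was 0.0039. A readthrough gene, EEF1E1-BLOC1S5, shares 384 of the 522 coding bases of EEF1E1 on the same strand. Reads in those bases cannot be told apart by gene, and how they were assigned was not tested. Unlike the EEF1G row, the EEF1E1 row held RF reads in every library. MTO1 and TIGD5 overlap the outer exons of EEF1A1 and EEF1D on the opposite strand and touch no coding base of the isoforms used here.

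**Figure D2:**
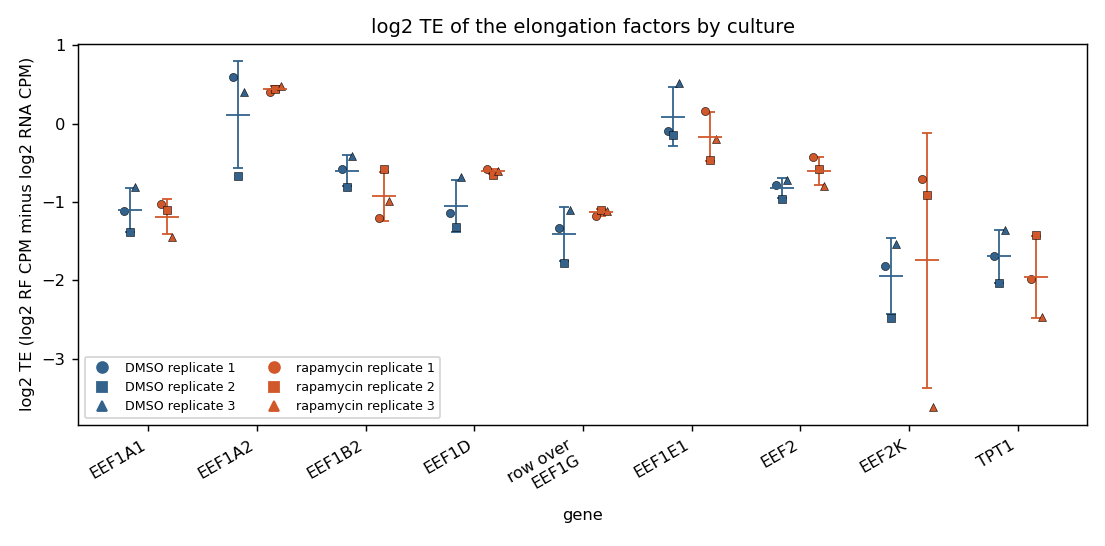
Log2 TE of each tested member and of the row that overlaps EEF1G. Points are cultures, with color for treatment and shape for replicate, and bars give the mean ± SD of 3 cultures. In all genes shown but EEF1D, the DMSO and rapamycin points overlap.

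The order of the DMSO cultures was shared between members. DMSO replicate 2 had the lowest TE of the 3 DMSO cultures in 8 of 8 members, and DMSO replicate 3 the highest in 7 of 8. Among all genes tested, DMSO replicate 2 was the lowest in 39.0% and DMSO replicate 3 the highest in 34.1%. In rapamycin, replicate 1 was highest in 5 of 8 members and replicate 3, the library with the fewest RF reads, was lowest in 4. Among all genes tested, rapamycin replicate 1 was the highest in 37.1% and rapamycin replicate 3 the lowest in 42.2%. Most members were read more deeply than that background. Among the 3009 genes with at least 250 RF reads, DMSO replicate 2 was the lowest in 37.9% and DMSO replicate 3 the highest in 39.1%. In rapamycin, replicate 1 was the highest in 46.7% of these genes and replicate 3 the lowest in 45.6%. The members share libraries, so these counts are not independent, and why the order was shared was not tested.

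**Figure D3:**
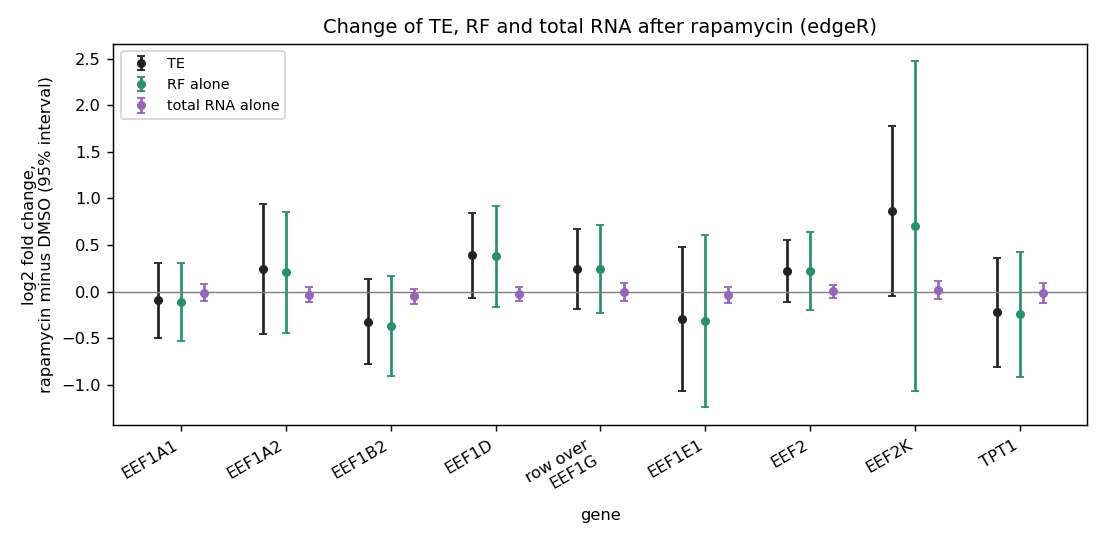
Log2 fold change (rapamycin minus DMSO) of TE, of RF alone and of total RNA alone for each tested member and for the row that overlaps EEF1G, from edgeR, with 95% intervals. Every interval includes 0, and the RNA intervals are the narrowest for each gene.

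Total RNA of the members was the most tightly measured quantity. Changes in RNA ran from −0.05 for EEF1B2 (SE 0.04, edgeR adjusted p = 0.766) to 0.01 for EEF2K (SE 0.04, edgeR adjusted p = 0.935). Over the 8 members the 95% intervals of RNA reached from 0.914-fold at the lowest to 1.08-fold at the highest. For EEF1G, limma-trend on log2(FPKM + 1) gave a change of 0.0052 (SE 0.05, adjusted p = 0.994). Isoform shares were not tested. The most abundant isoform of EEF1A1 gave 53.5 ± 3.67% of the EEF1A1 FPKM in DMSO and 55.3 ± 3.48% in rapamycin (SD, n = 3), and that of EEF2 gave 94.3 ± 0.333% and 94.6 ± 0.232%. EEF1D was spread over 53 isoforms, of which the most abundant held 24.3 ± 1.54% in DMSO and 24.6 ± 1.36% in rapamycin. Of the 4 most abundant isoforms of each member, 33 had a mean of at least 0.1 FPKM, and 3 of these, all higher in rapamycin, had groups that did not overlap, against 10.3% of all isoforms in either direction. They were an EEF1B2 isoform marked for nonsense-mediated decay (10.3 to 21.4 FPKM in DMSO and 23.8 to 27.7 in rapamycin), an EEF2 isoform (at most 5.65 and at least 6.35) and an EEF1D isoform (43.9 to 49.9 and 51.5 to 53.3).

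Levels of different genes can be compared only per length. On the FPKM scale the RNA of EEF1A1 was 2955 ± 245 in DMSO (SD, n = 3), far above EEF1G, TPT1 at 550 ± 37.6, EEF2 at 399 ± 6.94, EEF1D at 397 ± 8.01 and EEF1B2 at 393 ± 14.7. TPT1 and EEF1G did not differ beyond their spread, and neither did EEF2, EEF1D and EEF1B2. EEF1A2 followed at 71.1 ± 2.07, EEF1E1 at 59.5 (55.5 to 63.5 over the 3 cultures) and EEF2K at 9.35 ± 0.446. EEF1A1 exceeded EEF1A2 by 38.6-fold to 45.5-fold over the 6 cultures in RNA, but by at most 29.7-fold, with a median of 17.1-fold, in RF CPM per kilobase of coding sequence. EEF1A1 exceeded EEF2 by 6.80-fold to 7.78-fold in RNA and by 5.73-fold to 8.59-fold in RF density, ranges that overlap. The RNA of EEF1B2 over that of EEF1D lay between 0.957 and 1.03, and their RF density ratio between 0.754 and 1.71.

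In DMSO, the log2 ratio of RF density to FPKM was highest for EEF1E1, at 0.82 ± 0.38, and EEF1A2, at 0.79 ± 0.69. EEF1B2 had −0.01 ± 0.20, EEF1A1 −0.27 ± 0.27, EEF2 −0.30 ± 0.13, EEF1D −0.69 ± 0.32, EEF2K −0.87 ± 0.49 and TPT1 −0.98 ± 0.36 (SD, n = 3). For every pair of neighbors in this order, the ranges over the 3 DMSO cultures overlapped. By log2 TE in DMSO, EEF1A1 stood at the 46.2 percentile of all genes tested, EEF2 at 53.2, EEF1B2 at 58.5, EEF1D at 47.3, TPT1 at 32.8 and EEF2K at 28.3, while EEF1A2 and EEF1E1 stood at 72.5 and 72.2. Log2 TE is not scaled to length, so these percentiles are not a comparison per length. They also depend on how much of each transcript is coding, and how far was not tested.

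**Figure D4:**
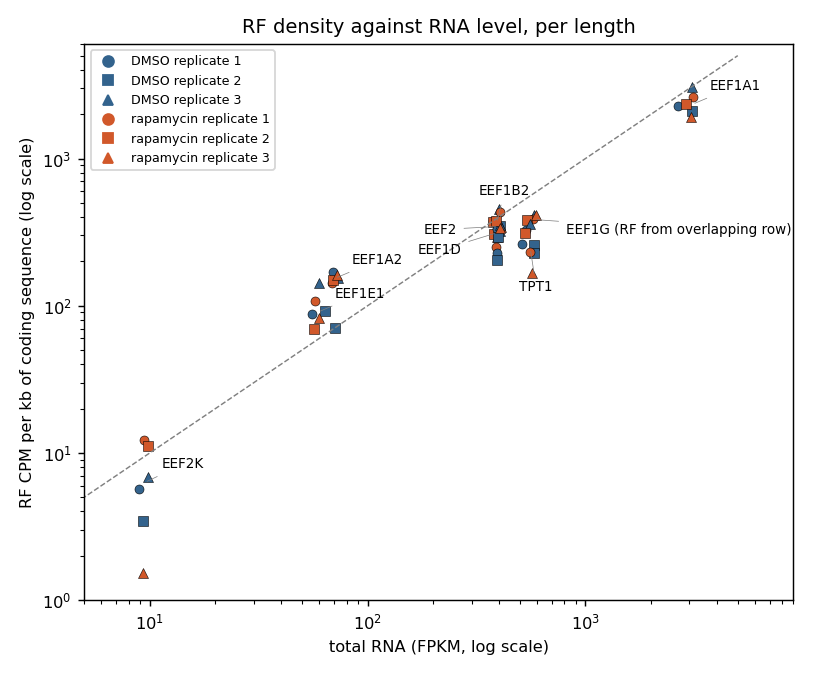
RF CPM per kilobase of coding sequence against total RNA in FPKM, both on log axes, for each member in each of the 6 cultures; for EEF1G the RF value is that of the overlapping row. The dashed line marks equal values. EEF1A1 lies far above the other members on both axes, at 2955 FPKM in DMSO on average, and EEF1A2 and EEF1E1 mostly lie above the line.

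These members differ in how much of their sequence exists elsewhere in the genome, and the study kept only uniquely aligned reads. Of the 28-base windows of the EEF1A1 coding sequence, 14 of 1359 (1.03%) matched no other place in GRCh37 exactly, and a window had a median of 6 other places. The share was 12.3% for EEF1B2, 14.0% for EEF1G, 42.5% for TPT1, 44.9% for EEF1D and 79.6% for EEF1E1, and it was 100% for EEF1A2, EEF2 and EEF2K. At 100 bases, nearer to a pair of RNA reads, it was 21.9% for EEF1A1, 56.4% for EEF1B2, 39.1% for EEF1G and 100% for the other 6. The low share in EEF1A1 stands beside 17462 RF reads in its row. The part of this in the levels of EEF1A1, EEF1B2 and EEF1G, and in the comparison of EEF1A1 with EEF1A2, was not tested. EEF2, whose windows are all found once, gives the deepest RF count free of it.

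**Figure D5:**
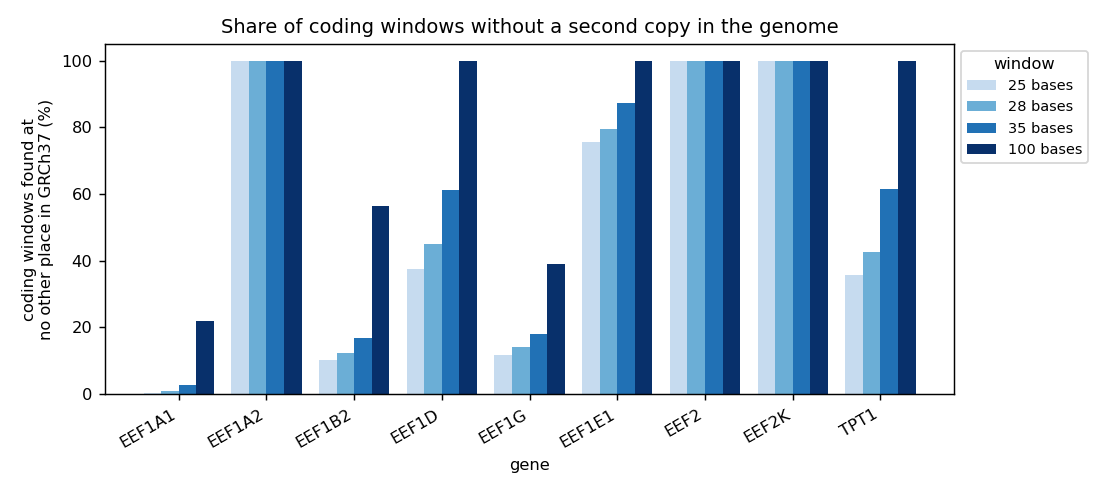
Share of the windows of each member's coding sequence that match no other place in GRCh37 exactly, for windows of 25, 28, 35 and 100 bases. At 28 bases the bars run from 1.03% for EEF1A1 to 100% for EEF1A2, EEF2 and EEF2K.

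The genes whose log2 TE followed the mean of the 6 measured TOP members most closely over the 6 cultures were MDH2 (Pearson r = 0.99), RPL35A (0.98), TIMM50 (0.98), VWA1 (0.97) and HIST2H3A (0.97), of 730 genes with at least 1000 RF reads. Among the 50 highest, 7 were cytosolic ribosomal protein genes (14.0%), which made up 10.1% of the candidates. The points share libraries and depth, and the median r of the candidates was 0.13.

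Other genes of the pathway were described as 7 lists with 50 genes, all of them tested. In TE, 0 of the 50 passed after adjustment over all genes (edgeR), 8 had an unadjusted p under 0.05, of which 4 were lower and 4 higher, while 12.6% of all genes had such a p, and 23 had a lower and 27 a higher estimate. In RF alone and in RNA alone 0 passed after adjustment. The median TE change was 0.45 for a list of 5 mitochondrial members of the elongation factor families and the initiation factors MTIF2 and MTIF3, of which MTIF3 was the median gene, −0.11 for eIF5A and its hypusine enzymes, −0.30 for the diphthamide enzymes that modify eEF2, and 0.18 for the methyltransferases of eEF1A and eEF2. It was 0.60 for 6 genes of selenocysteine synthesis and incorporation, of which only EEFSEC is an elongation factor. The median was 0.06 for termination and recycling, and −0.12 for the multi-tRNA synthetase partners of EEF1E1, beside −0.06 over all genes.

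Most genes with the smallest p of their list had few RF reads. MTIF2, the mitochondrial initiation factor IF2, had 18, 5 and 9 RF reads in DMSO and 40, 98 and 91 in rapamycin, with a TE change of 3.29 (SE 1.01, edgeR adjusted p = 0.238), and its TE groups overlapped. DOHH, which completes the hypusine of eIF5A, had 0, 2 and 12 RF reads in DMSO and 15, 15 and 5 in rapamycin, with a TE change of 1.59 (SE 0.59, edgeR adjusted p = 0.303). METTL21B, a lysine methyltransferase of eEF1A, had 0, 8 and 18 RF reads in DMSO and 0, 2 and 0 in rapamycin, with a TE change of −3.56 (SE 0.99, edgeR adjusted p = 0.231). RARS, the arginyl-tRNA synthetase and the smallest p among the partners of EEF1E1, had 45, 174 and 247 against 186, 88 and 20 RF reads, with a TE change of −0.62 (SE 0.31, edgeR adjusted p = 0.431).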

How the data were processed

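Ribosome footprints and total RNA of PANC-1 cells were sequenced by the authors on an Illumina HiSeq. The authors trimmed and quality-filtered the RF reads, removed ribosomal RNA reads, aligned RF and RNA reads to GRCh37 with HISAT2, kept unique alignments and deposited raw counts per protein-coding gene from featureCounts. They also deposited FPKM of genes and isoforms from Cuffnorm (Cufflinks 2.2.1, per the submitters' processing notes) and a normalized signal per gene, and their own RiboDiff ratios, fold changes and p-values, which were not used. Isoform counts were not used here.

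Counts were scaled by TMM within each library type. Genes with at least 10 RF and 10 RNA counts in sum were tested in edgeR 4.0.16 (R 4.3.3) with the robust quasi-likelihood test and Benjamini-Hochberg adjustment at 0.05. The change in TE was tested as the library type by treatment term of a model over all 12 libraries. The TE values of single cultures were computed with 2 counts added as a prior. DESeq2 1.42.0, limma 3.58.1, other scalings and count minimums, blocks and left-out cultures were alternatives. RNA was also fitted from log2(FPKM + 1). RF density used the coding length of the most abundant coding isoform (GENCODE lifted to GRCh37), although reads were counted over whole exons. Windows were matched to GRCh37 on both strands, and places within the gene itself were not counted. Starts came from RefSeq. In simulated counts for 12929 genes, of which 193 were given a 4-fold TE change, 66.8% of the 193 and 50 unchanged genes were called. The simulated spread was fixed for each library type and not estimated from these data, so these rates need not hold here. Members and lists were chosen with earlier results of these data known. The 100-base windows, the row that overlaps EEF1G and the transcript starts were added after seeing the data. Named genes were all members, up to 3 genes per list by smallest p (of these, 4 are given) and the 5 nearest TE profiles. RF depth, 278835 to 1574723 reads, limits the precision. Reads carry no molecular identifiers, so the Poisson interval and the limits for a count of 0 cover counting error only, whereas the intervals of fitted changes include the spread between cultures. In the TE model, RF and RNA libraries share an estimate of spread for each gene, so a TE interval can be narrower than that of RF alone. Such TE intervals may be too narrow. In limma voom, which weighted RF and RNA libraries separately, the SE of TE was larger than in edgeR for every tested member. It was 0.22 against 0.19 for EEF1A1, 0.19 against 0.16 for EEF2, 0.44 against 0.21 for EEF1B2 and 0.91 against 0.27 for TPT1.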

Additional observations from a re-analysis of the deposited data

How the results depend on the processing

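No member was called in TE, RF or RNA under any alternative. Of the TE estimates, EEF1B2 and TPT1 kept a negative and EEF1D, EEF2 and EEF2K a positive sign throughout. EEF2K had the smallest adjusted p of any member (0.0774, DESeq2, against 0.423 in edgeR), and it could not be fitted at a minimum of 100 counts. Leaving out each culture moved the TE change of EEF1B2 between −0.53 (without rapamycin replicate 2) and −0.17 (without rapamycin replicate 1), of TPT1 between −0.51 (without rapamycin replicate 2) and −0.015 (without DMSO replicate 3), of EEF1D between 0.23 (without DMSO replicate 2) and 0.60 (without DMSO replicate 3), of EEF2 between 0.13 (without rapamycin replicate 1) and 0.31 (without rapamycin replicate 3), and of EEF2K between 0.58 (without rapamycin replicate 1) and 1.29 (without DMSO replicate 3). It moved that of EEF1A1 between −0.24 (without DMSO replicate 2) and 0.046 (without DMSO replicate 3), of EEF1A2 between −0.069 and 0.45, of EEF1E1 between −0.54 and 0.0039, and of EEF2K in RNA between −0.023 and 0.045. The RNA change of EEF2K was also negative without a count minimum (−0.0044) and in limma voom (−0.010), and that of EEF1G on the normalized signal (−0.0057). Of all estimates for members, 25 of 135 in RNA and 3 of 103 in RF changed sign across alternatives.

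Over all genes, counts of calls depended on the setting, and the cause was not tested. DESeq2 called 1236 genes in TE, 5 in RF and 29 in RNA. RF gave 20 calls without a count minimum. The replicate block gave 6 calls in RF and changed no other call. RNA gave 4 calls on log2(FPKM + 1), 5 with a pseudocount of 0.1, 5 without a minimum and 358 on the normalized signal, where the row over EEF1G also passed (−0.75, adjusted p = 0.0173, limma-trend). That row changed by −0.17 on log2(FPKM + 1) and by −0.62 with a pseudocount of 0.1, a shift that arises only at low values. From the raw counts its RNA change was −0.0046 (SE 0.04, edgeR adjusted p = 0.976). Leaving out single cultures gave 0 to 396 calls in TE, 0 to 5 in RF and 0 to 687 in RNA, with both highest counts without DMSO replicate 3. The main fits did not treat same-numbered cultures as pairs, and the main TE fit had no term for the culture that an RF and an RNA library share. Same-numbered cultures did not deviate together (correlations of −0.15 to −0.06 in RF and −0.22 to −0.07 in RNA). The share of windows found once rose with window length in every member below 100%. The RF depth limits EEF2K and EEF1E1 most.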
